A study of Mus musculus with 4 samples.

Results

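Of the 122489 TCF1 regions found on chromosomes 1 to 19 in mouse thymocytes, 2249 were called in both γδ populations and not in DP cells, and these regions are described here. Overlapping peaks of the 3 deposited lists were merged wherever they shared at least 1 bp, and a region was kept if it held a peak of the Sox13hi and of the Sox13lo list and no DP peak. The regions were thus selected on called peaks, the same measurement that is described below, and ordered by the score in each list. That choice fixed the absence of a DP peak, and the counts of regions by list are descriptions without a test. The Sox13hi and Sox13lo cells were thymocytes bearing the γδ receptor and CD24, sorted from C57BL/6 mice of the genotype TCRbeta KO.Sox13 ECFP KI/+, the first by high and the second by low or absent cyan fluorescence from the reporter in Sox13. All γδ cells of both groups thus lacked TCRβ and carried the ECFP knock-in in 1 copy of Sox13. The CD4 CD8 double-positive (DP) cells came from wild type C57BL/6 thymus, so lineage and genotype cannot be told apart in any comparison with DP. No age was given in the sources used here. Each population had 1 library, no spread between replicates exists, and peak positions do not measure the expression of sorting markers, so the labelled cell types were not checked.

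TCF1, the product of Tcf7, is a high mobility group protein that bends DNA at its sites and can recruit β-catenin as a coactivator or Groucho-family corepressors. It acts from early steps of T cell development onward, in the γδ lineage and in the αβ lineage to which DP thymocytes belong. SOX13 is another high mobility group factor, present in a subset of immature γδ thymocytes that includes precursors of IL-17-producing cells. A site without a DP peak may have been bound in DP cells below the lowest score of their list. No gene positions or sequence on mm9, the build of the lists, were used here, so nearby genes, the promoter share and motifs were not analysed, and regions are named by position on mm9, counted from 1.

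The 2249 regions were a small part of all regions and a larger part of those shared by the γδ populations. They made up 1.84% of all merged regions of the autosomes. Of the 6205 regions held by both γδ lists, 36.2% had no DP peak and the other 3956 had one. A DP peak was also missing from 95.2% of the 33385 Sox13hi regions that had no Sox13lo peak and from 70.6% of the 4139 Sox13lo regions that had no Sox13hi peak. The X and Y chromosomes, left out by the choice of regions, held 173 more regions of this kind.

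Within a region a Sox13hi and a Sox13lo peak overlapped by the choice of regions. The closeness described next was thus partly fixed by that choice, and it was not compared with regions of all 3 populations. A single peak of each list made up 2170 of the 2249 regions, 78 held 2 Sox13hi peaks and 1 held 2 Sox13lo peaks. The Sox13hi peaks had a median width of 200 bp and the Sox13lo peaks of 350 bp. Of the 2328 overlapping pairs, 94.2% had the Sox13hi peak inside the Sox13lo peak or equal to it, and 87.7% had midpoints within 100 bp of each other. The median distance between midpoints was 25 bp, which is below the 50 bp window on which all 3 lists are laid out. The regions were 150 to 1500 bp wide, with a median of 350 bp, and covered 855.5 kb in all.

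The regions took different places in lists of very different length, 40156 autosomal peaks for Sox13hi and 10394 for Sox13lo, so shares at the same place are not compared between the lists. In the Sox13hi list they were most frequent at the top, where they took 23.7% (95% Wilson interval 22.4 to 25.1) of the best-scored 10% of its autosomal peaks, 12.9% of the next 10% and 0.772% of the last 10%. In the Sox13lo list they were least frequent at the top, with 6.64% (5.28 to 8.32) of the best-scored 10%, and most frequent in the middle, with 29.6% (26.9 to 32.5) of the fifth such group and 29.2% of the eighth. The best-scored 10% of Sox13lo peaks lay mainly in regions of all 3 populations, which took 86.8% (84.6 to 88.7) of them. Regions of all 3 populations took 64.8% (63.3 to 66.3) of the best-scored 10% of Sox13hi peaks and 1.10% of the last 10%. The fall down the Sox13hi list was thus not particular to the set, and both kinds of region hold a Sox13lo peak by definition. The score is the authors' own value per peak and is used only to rank or describe peaks within a list. The intervals cover counting error only, and neighbouring peaks are not independent.

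**Figure D1:**
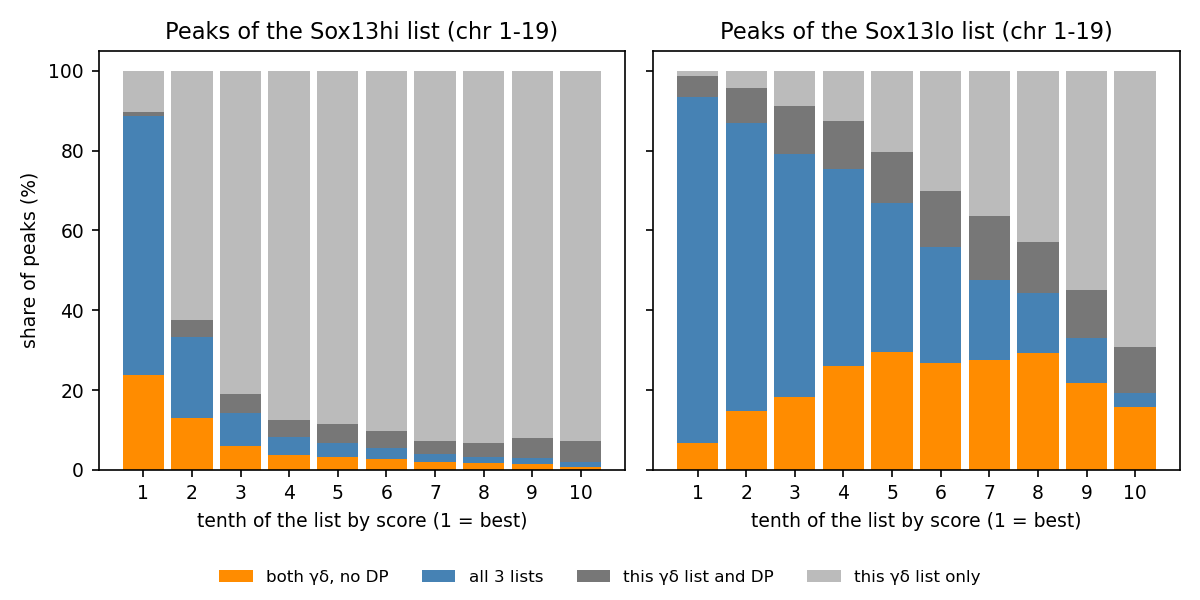
Share of autosomal peaks (%) by class of region, for each 10% of the Sox13hi list (left) and the Sox13lo list (right) in order of score, 1 being the best. Regions of both γδ lists without a DP peak (orange) fall from 23.7% to 0.772% down the Sox13hi list, and in the Sox13lo list go from 6.64% at the top to 29.6% in the fifth group. Regions of all 3 lists (blue) also fall down the Sox13hi list, from 64.8% to 1.10%.

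Among regions that both γδ populations held, the share without a DP peak was higher where the Sox13lo score was lower. With the 6205 regions ordered by their Sox13lo score, 5.16% (3.68 to 7.20) of the best-scored 10% lacked a DP peak, against 72.9% (69.3 to 76.3) of the last 10%. The share rose at each of the 9 steps between these groups. Ordered by their Sox13hi score, the shares were 14.5% (12.0 to 17.5) and 55.9% (51.9 to 59.7), so the range was narrower. The median score of the 2249 regions was 32.4 in the Sox13lo list, against 56.7 in the 3956 regions of all 3 populations and 31.9 in the 1215 regions of Sox13lo and DP. In the Sox13hi list the median was 17.4, against 25.6 in the regions of all 3 and 7.65 in the 1616 regions of Sox13hi and DP. Regions of a single γδ list without DP had lower medians than the set, 19.9 for Sox13lo only and 7.03 for Sox13hi only.

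**Figure D2:**
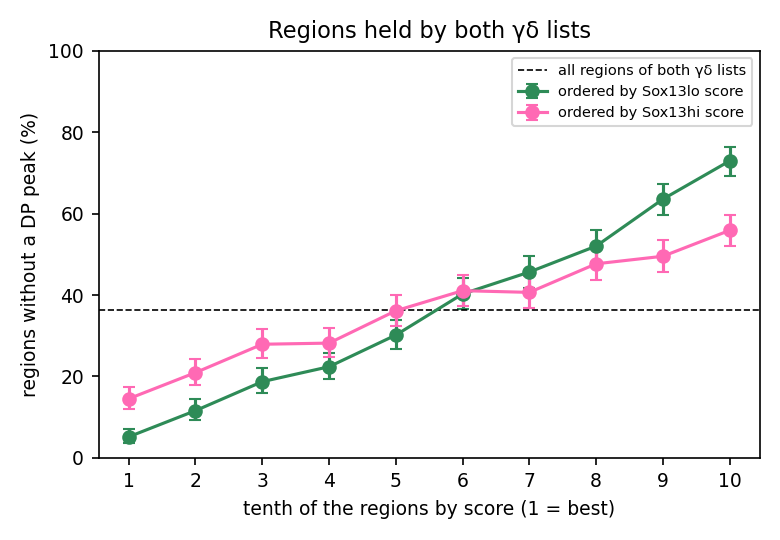
Share of regions without a DP peak (%) among the 6205 autosomal regions of both γδ lists, in groups of 10% ordered by Sox13lo score (green) or Sox13hi score (pink), with 95% Wilson intervals and the pooled share as a dashed line. The Sox13lo order runs from 5.16% to 72.9% and the Sox13hi order from 14.5% to 55.9%.

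Within a range of Sox13lo scores, the share differed less along the Sox13hi score. Among regions in the best 20% by Sox13lo score, the share without a DP peak was 7.35% (5.55 to 9.66) where the Sox13hi score was also in its best 20% and 13.0% (6.42 to 24.4) where it was in its last 20%. In the next 20% by Sox13lo score the shares ran from 17.1 to 22.7% over the 5 groups of Sox13hi score, and in the middle 20% from 30.1 to 38.5%. In the fourth 20% by Sox13lo score they ran from 40.9 to 52.7%. There the highest share, 39 of 74 regions, was in the best 20% by Sox13hi score, so the direction along the Sox13hi score was not constant. In the last 20% by Sox13lo score they ran from 43.5% (25.6 to 63.2, 10 of 23 regions) to 74.5% (70.7 to 78.1, 395 of 530). Within every group of Sox13hi score the share was higher in the last than in the best 20% by Sox13lo score, from 13.0 to 74.5% in the lowest-scored group. No test was run on these shares, since regions of 1 library are not replicates of a population.

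**Figure D3:**
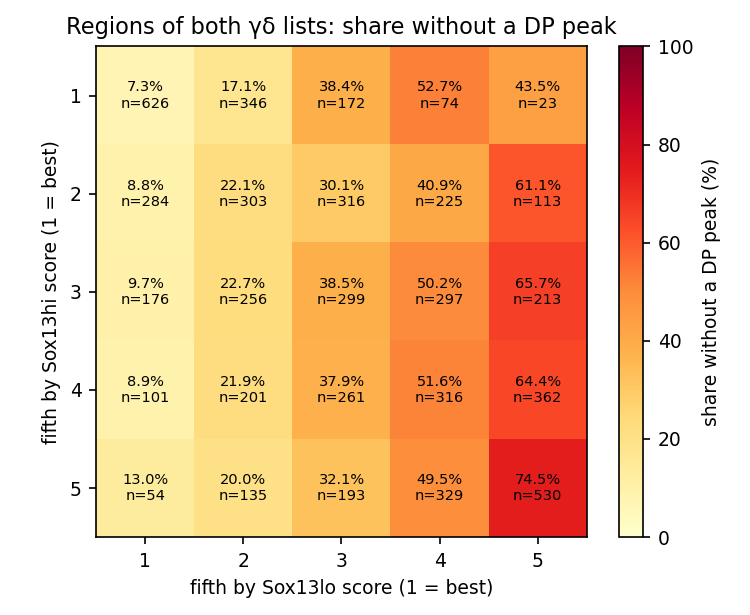
Share of regions without a DP peak (%) among regions of both γδ lists, in 5 equal groups by Sox13lo score (columns) and 5 by Sox13hi score (rows), 1 being the best, with the number of regions in each cell. The colour changes along the columns, from 13.0 to 74.5% in the bottom row. In the top row it goes from 7.35% to 52.7% in the fourth column and 43.5% (10 of 23 regions) in the last. It changes less along the rows of a column, and there most in the last column, from 43.5 to 74.5%.

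Peak width moved with the score. The Sox13lo peaks of the best 10% by Sox13lo score had a median width of 800 bp and those of the last 10% of 250 bp, and a wider peak meets a DP peak more easily. When a DP midpoint within 500 bp of the midpoint of the Sox13lo peak was asked for in place of an overlap, the shares without DP were 5.65% (4.09 to 7.75) and 69.4% (65.7 to 72.9) at these ends. By width alone, the share without a DP peak was 75.5% (72.3 to 78.4) for Sox13lo peaks up to 250 bp, 50.5% up to 350 bp, 28.5% up to 500 bp and 17.1% (15.5 to 18.8) above that. Within each of these widths the regions were split into the better-scored and the other 50% by Sox13lo score. Within them the shares were 72.8 and 78.1% with overlapping intervals, 41.6 and 59.4%, 18.9 and 38.1%, and 8.40 and 25.8%, in order of width and with the better-scored 50% first. This split is coarser than the groups of 10% above and was made within widths, so its contrasts were not compared with that by width. Width and score were not separated further.

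In these regions a better Sox13hi score often went with a better Sox13lo score. The ranks of both lists correlated across the 2249 regions with a Spearman rho of 0.47, against 0.50 in the regions of all 3 populations. Regions share a library, and both lists share the choice of region, so these values are descriptions. Of the regions, 198 were in the best-scored 20% of both lists and 189 in the last 20% of both, when ranks were taken over the 2249 regions. By contrast, 13 regions joined the best 20% by Sox13hi score with the last 20% by Sox13lo score, and 25 joined the reverse.

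The regions named next were chosen after their scores were seen, for the largest difference between their ranks. With 1 library a population, they are examples and not differences shown between the populations. At chr5:31394801-31395550 the score was 78.0 in Sox13lo cells, at rank 1364 of 10871, and 4.52 in Sox13hi cells, at rank 38753 of 41720. At chr7:64846151-64846950 it was 84.9 in Sox13lo cells, at rank 1111, and 4.98 in Sox13hi cells, at rank 35391. The reverse order was found at chr6:22355751-22356000, with a score of 55.0 in Sox13hi cells, at rank 523, and 17.0 in Sox13lo cells, at rank 8855. At chr6:72305201-72305550 the score was 38.3 in Sox13hi cells, at rank 1385, and 12.7 in Sox13lo cells, at rank 9689. The scales and lengths of the lists differ, and the order was therefore taken over the 2249 regions alone.

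The best-ranked regions of the set, ordered by the worse of their ranks in the γδ lists, were spread over the genome. The first 20 lay on 13 autosomes, with 3 on chromosome 5 and 3 on chromosome 11. They were 500 to 1500 bp wide, with a median of 800 bp. Their Sox13hi scores ran from 48.9 to 236, with a median of 65.4, and their Sox13lo scores from 93.9 to 304, with a median of 115.

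A pair of regions stood apart by Sox13hi score. The region at chr5:105356451-105357750, first in the order, held 2 Sox13hi peaks within 1 Sox13lo peak, with a best score of 207 in Sox13hi cells (rank 30) and 304 in Sox13lo cells (rank 29). It lay 42550 bp from the nearest DP peak, and only 1 DP peak was found in the 100 kb around it. The region at chr17:36621501-36622050 had scores of 236 and 202 and lay 1700 bp from a DP peak with the low score of 11.5, at rank 75909 of 90956. These Sox13hi scores were 26.2 and 29.9 times the median of the Sox13hi list, and the next best Sox13hi score in the set was 129. Their Sox13lo scores were 8.58 and 5.71 times the median of that list, and the next best Sox13lo score was 169. Neither region was checked for repeated sequence.

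The regions that followed had lower scores, given below with the Sox13hi score first and the Sox13lo score second. At chr6:140572101-140572900 the scores were 72.8 in Sox13hi and 136 in Sox13lo cells, and a DP peak with a score of 10.7 (rank 77603) lay 450 bp away. At chr7:20092351-20092900 the scores were 70.4 and 134, with the nearest DP peak 10950 bp away. At chr8:119467101-119467850 they were 65.9 and 126, with a DP peak of score 54.1 at 3650 bp. The nearest DP peak was thus a low-scored one for the first of these and a better-scored one (rank 9231) for the last.

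Further down the order, the distance to DP occupancy varied as widely. The regions at chr5:80243001-80243900 (scores 78.8 and 120) and at chr16:17806851-17807650 (82.0 and 116) lay 10100 and 1400 bp from a DP peak. At chr8:74000001-74000900 the scores were 88.3 and 104, and the nearest DP peak, 6700 bp away with a score of 91.5, was one shared with Sox13lo cells. At chr4:16090251-16090750 (50.1 and 93.9) the nearest DP peak was 46750 bp away. Of the 20 regions, 17 had as their nearest DP peak one that no γδ list held, and 18 had no region of all 3 populations within 10 kb. In 3 of the 20 a DP peak lay within 1 kb, including chr15:77136551-77137350 and chr11:72421051-72421900, each 100 bp from one. Over all 2249 regions the nearest DP peak was DP-only in 79.7%. A region of all 3 populations lay within 10 kb of 13.0% of them, and a DP peak within 1 kb of 16.3%. These counts of the 20 were thus near the shares of the whole set and mark no trait of the best-ranked regions.

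**Figure D4:**
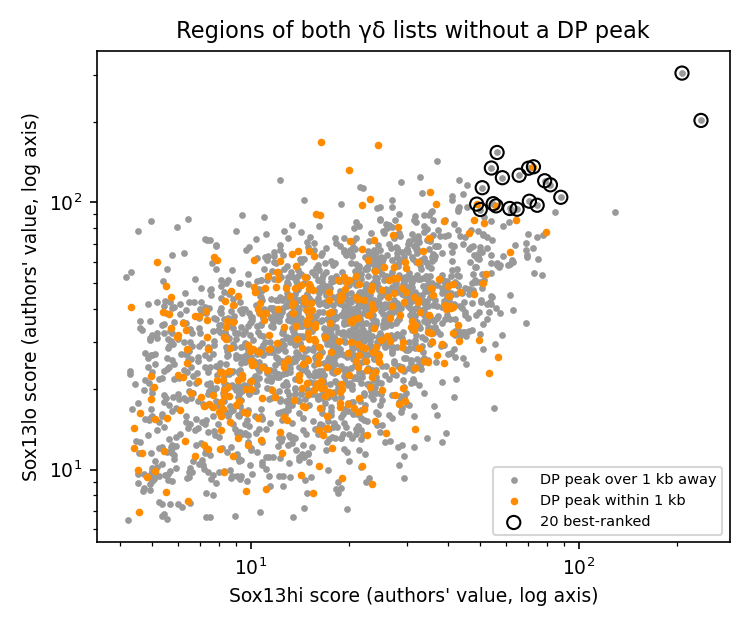
Score in the Sox13lo list against score in the Sox13hi list (authors' values, log axes) for the 2249 regions, with the 366 that have a DP peak within 1 kb in orange and the 20 best-ranked circled. The regions on chromosome 5 (207 and 304) and chromosome 17 (236 and 202) sit apart at the top right, and the orange points reach 79.3 in the Sox13hi and 169 in the Sox13lo list.

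Many regions without a DP peak nevertheless lay beside one. The median distance to the nearest DP peak was 7800 bp (quartiles 2500 and 17250), and 57.2% (55.1 to 59.2) of the regions had one within 10 kb. Both depend on the length of the DP list: with lists of equal length the median was 65075 bp and the share 13.5%, and with the better-scored 50% of DP peaks they were 16300 bp and 36.7%. Within 1 kb there was a DP peak for 366 regions, or 16.3% (14.8 to 17.9), and within 200 bp for 134. The first 500 bp from a DP peak held 248 regions. Between 2000 and 5000 bp the mean was 29.8 regions per 250 bp, so regions were 4.16 times as dense in the first 500 bp. For Sox13lo-only regions the same ratio was 3.27 and for Sox13hi-only regions 1.44. Those sets also lack a DP peak by definition, and their median distances were 7750 and 9500 bp. A DP peak lay within 10 kb of 59.0% of Sox13lo-only and 51.8% of Sox13hi-only regions. Within 1 kb these shares were 14.8 and 7.96%. The set was thus about as close to DP peaks as the Sox13lo-only regions.

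**Figure D5:**
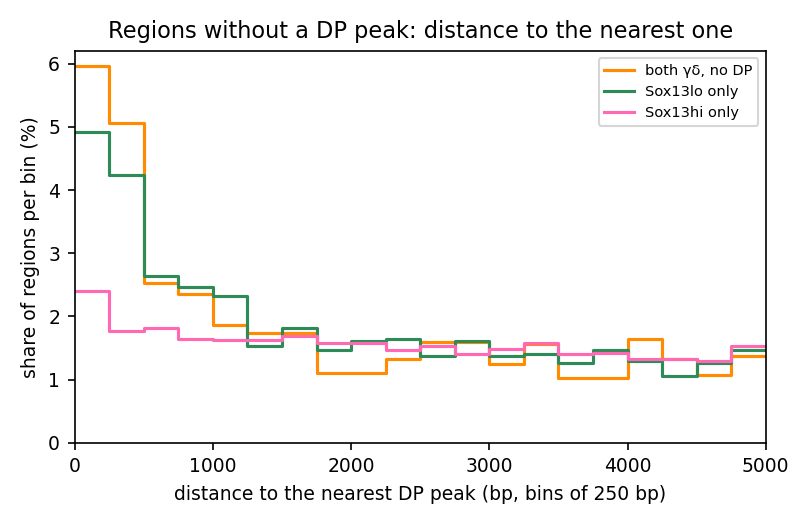
Share of regions (%) per 250 bp of distance to the nearest DP peak, up to 5000 bp, for regions of both γδ lists without a DP peak (orange, n = 2249), Sox13lo-only regions (green, n = 2924) and Sox13hi-only regions (pink, n = 31769). The orange and green lines are highest in the first 500 bp, and the pink line changes less.

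The DP peaks beside these regions were often themselves sites of all 3 populations. Of the 366 regions with a DP peak within 1 kb, the nearest one belonged to a region of all 3 populations in 46.7% (41.7 to 51.8), to a DP-only region in 39.1% (34.2 to 44.2) and to a region of Sox13lo and DP in 12.8%. Among the 1883 regions farther away the nearest DP peak was DP-only in 87.6% (86.1 to 89.0) and common to all 3 in 8.07% (6.93 to 9.39). Over all DP regions of the autosomes, 92.1% were DP-only and 4.62% common. The nearest DP peaks within 1 kb had a median score of 32.1, against 25.4 for those farther away, which is also the median of the whole DP list.

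Regions close to a DP peak had lower median scores in the γδ lists. The median Sox13hi score was 15.9 in the 366 regions within 1 kb and 17.8 in the others, and the median Sox13lo score 30.4 and 32.8. At the limit of the overlap rule, 46 regions had a DP peak touching them or 50 bp away, with a median Sox13hi score of 13.2 and a median Sox13lo score of 28.3. On the other side of the limit, 18 regions of all 3 populations had a DP peak that overlapped a γδ peak by 50 bp only, with median scores of 13.8 and 34.8. Those 46 regions were 2.05% of the set.

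At the other end, 50 regions had no DP peak within 50 kb. The best-ranked was at chr7:117757801-117758700, which scored 46.9 in Sox13hi cells and 78.9 in Sox13lo cells, at a distance of 57100 bp. Others were at chr10:39089551-39090250, with scores of 35.3 and 71.4 and a distance of 68600 bp, and at chr19:53977851-53978600, with scores of 29.3 and 62.6 and a distance of 73050 bp. The largest distance, 111150 bp, was that of a region at chr11:3020151-3020450, with scores of 33.5 and 48.6.

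DP peaks were counted around the set and around the other regions without one. The 100 kb around a region held a median of 4 and a mean of 3.95 DP peaks, against 4 and 3.99 around Sox13lo-only regions and 3 and 3.56 around Sox13hi-only regions. No DP peak was found in that window for 52 of the 2249 regions, or 2.31%. Regions of all 3 populations lay within 10 kb of 13.0% (11.7 to 14.4) of the set, of 13.3% (12.1 to 14.5) of Sox13lo-only and of 2.54% (2.37 to 2.72) of Sox13hi-only regions. The share in the set was 5.68% without the regions that had a DP peak within 1 kb, 5.35% with lists of equal length, 7.50% with the better-scored 50% of each list and 8.70% with that of the γδ lists.

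A minority of the regions lay in groups. Another region of the set was found within 10 kb of 264 regions, or 11.7% (10.5 to 13.1), and within 1 kb of 144. The same shares were not computed for other classes of region. Whether neighbouring regions are separate sites or parts of 1 site was not tested. With regions joined up to 20 kb apart, 1901 stood alone, 143 groups held 2, 14 held 3 and 5 held 4. The shortest of the groups of 4 spanned 2800 bp, at chr8:11007151-11009950. Its members had Sox13hi scores of 21.2, 35.7, 17.4 and 15.7 and Sox13lo scores of 35.6, 62.3, 25.6 and 20.2 in order of position, and 2 DP peaks were found in the 100 kb around it. The second member was thus the highest in both populations.

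The group with the best ranks lay at chr2:27351451-27356500. Its members scored 24.2, 56.4, 84.5 and 18.1 in Sox13hi cells and 22.1, 154, 91.6 and 30.9 in Sox13lo cells, in order of position. The highest member was therefore the third in Sox13hi cells and the second in Sox13lo cells. The third member ended at position 27355950 and the last began at 27356001. A region of all 3 populations followed 250 bp after the last member, and its DP peak, 1250 bp away, had a score of 19.4. At chr4:154334851-154358550 the 4 members had Sox13hi scores from 14.3 to 24.3 and Sox13lo scores from 23.6 to 49.9, and the DP peak nearest to 3 of them, 15150 to 18700 bp away, was among the best of its list, at rank 219 with a score of 218. The groups of 4 at chr3:25432601-25456350 and at chr8:86521301-86568900 spanned 23750 and 47600 bp.

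The set was found on every autosome. Among all regions of both γδ lists, the share without a DP peak was lowest on chromosome 15, with 31.2% (25.9 to 37.0, 83 of 266). It was highest on chromosome 14, with 40.9% (34.4 to 47.7, 85 of 208). On each of the 19 autosomes the interval included the pooled share of 36.2%. Chromosome 2 held the most regions of the set, 202 of its 544 regions of both γδ lists, and chromosome 18 the fewest, 65 of 186.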

How the data were processed

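TCF1 chromatin immunoprecipitation and sequencing was done on 1 library each of Sox13hi γδ, Sox13lo γδ and DP thymocytes. The input library was not analysed here. The authors deposited each peak list as 6 columns without a header, with a score per peak in column 5. The submitters' processing notes name mm9 as the build. How reads were aligned, how peaks were called and whether the input was used is not given in the sources used here. Read depth is unknown, and a missing peak may reflect the lowest score of a list.

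Starts and ends lie on a 50 bp grid with the last base counted from 0, so 1 was added to ends. Peaks sharing at least 1 bp were merged in Python 3.11.15 (numpy 2.4.6, pandas 2.3.3), and bedtools 2.31.1 gave the same 2249 regions. Ranks are within the whole list, and a region takes the best peak of each list. Distances are the bases between a region and a peak. Wilson intervals used scipy 1.17.1, and plots matplotlib 3.10.9. The merging and distance steps were tested on simulated lists with planted classes. No test between populations was possible.

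The regions, groupings and alternatives were chosen with earlier results of these data known. The rule for named regions was the 20 best by the worse of both ranks, of which some are given in full. Other regions were chosen after their values were seen. Planned results on promoters, TCF/LEF motifs, repeats and listed genes needed mm9 sequence or gene positions and were not analysed here. The gene and promoter tables at hand are on another build, and no positions were converted.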

Additional observations from a re-analysis of the deposited data

How the results depend on the processing

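The settings that limit only the γδ lists or only the DP list to the better-scored 50% were chosen with the data already seen. The 2249 regions became 1360 with the better-scored 50% of each list and 942 with that of the γδ lists alone. Their number was 3010 with lists of equal length and 2959 with the better-scored 50% of the DP list. A reciprocal overlap of 50% left 1542, and asking for no DP peak within 1 kb left 1883. The share within 10 kb of a DP peak became 48.9% without regions that had one within 1 kb, 37.0% with the better-scored 50% of each list, 13.5% with lists of equal length (10871 peaks) and 36.7% with the better-scored 50% of DP peaks. It was 16.3% within 1 kb and 97.8% within 50 kb. The share of regions of both γδ lists without a DP peak became 38.4% with a reciprocal overlap of 50%, 30.3% when no DP peak within 1 kb was asked for, 34.2% with the better-scored 50% of each list, 60.3% at equal length, 23.7% with the better-scored 50% of the γδ lists and 47.7% with that of the DP list. In the best 10% by Sox13lo score it became 7.48% (reciprocal), 16.6% (equal length) and 9.03% (DP list), and in the last 10% 59.7% (1 kb), 58.0% (each list), 91.8% (equal length), 44.5% (γδ lists) and 84.1% (DP list). In the best 10% by Sox13hi score it became 18.1% (each list), 35.1% (equal length), 11.6% (γδ lists) and 22.4% (DP list), and in the last 10% 68.7% (reciprocal), 46.1% (1 kb), 43.5% (each list), 72.6% (equal length), 32.2% (γδ lists) and 68.1% (DP list). Fewer DP peaks leave more regions without one by construction, and for other moves the cause was not tested. In all 7 settings that change the regions, the share was lower in the best than in the last 10% by either score, and the gap was larger by Sox13lo score. The median distance to a DP peak ran from 7550 bp (better-scored 50% of the γδ lists) to 65075 bp (equal length). The rank correlation between the γδ lists ran from 0.31 (better-scored 50% of the γδ lists) to 0.66 (reciprocal overlap). Of 79 alternative values, 34 stayed within the counting interval or within 1.5 times a count, and 45 moved. Promoters, motifs and repeats could not be examined under any setting without mm9 sequence or genes. No paired analysis was possible because there was 1 library for each population. The lists give no read depth, and what depth limits is therefore unknown.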
